A study of Homo sapiens with 6 samples.

Results

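The 9 genes described here encode the amyloid precursor protein (APP), its paralog APLP2 and proteins of the secretases that cleave them. They were chosen as named genes and found by matching Ensembl identifiers to symbols, and all 9 listed genes were among the 21429 genes of the deposited table. All 9 passed the filter on low values (a mean of at least 3), with 15327 genes in all. RNA was sequenced from 6 cultures of U251, an established human glioma line, all carrying a stably expressed mutant APP (K670N/M671L in the sample labels; the design text gives M671L alone). Group siRPL13 held 3 cultures electroporated with an siRNA against RPL13, a protein of the large ribosomal subunit, and group siNC held 3 cultures that received a control siRNA. Both groups were given doxycycline at 1 µg/mL from 24 h to induce the mutant APP and were harvested 72 h after transfection, so no library shows cells without the induced transgene. The labels call the cultures biological triplicates. How the cultures were kept apart, and whether the line is 1 clone, are not stated, so p-values measure the spread between these libraries.

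APP is a membrane protein that is cut in one of a pair of ways. In the first, an alpha-secretase such as ADAM10 or ADAM17 cuts inside the amyloid-beta stretch. In the other, the beta-secretase BACE1 cuts at its start, and the remaining stub is cut within the membrane by gamma-secretase, a complex of a presenilin, nicastrin (NCSTN), APH1 and PEN2, which releases amyloid-beta. The same secretases cut many other membrane proteins, among them Notch receptors and cell adhesion molecules.

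The sequence that carries the labelled mutation site is shown because the cut made by BACE1 lies in it. It is the reference coding sequence of codons 662 to 680 of the 770-residue form (GENCODE transcript APP-201, exon 16 of 18, GRCh38 chr21:25897597-25897653, minus strand), 5′ to 3′. The capitals mark codons 670 and 671, which the labels name as changed and which lie just before the cut made by BACE1; the codons of the introduced copy were not analysed here.
APP: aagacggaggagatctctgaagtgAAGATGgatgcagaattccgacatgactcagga

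Values are regularized-log (rlog) values, which are read counts scaled for library size and shrunken towards the gene's mean, on the log2 scale; read depth per library is unknown. Library medians were 9.12 to 9.13. The siRNA's target RPL13 had rlog values of 13.03, 13.12 and 14.09 in siRPL13 replicates 1 to 3, against 14.05, 14.16 and 14.18 in siNC. Replicate 3 thus lay within the siNC range and goes against its label, so it is called the library labelled siRPL13 replicate 3, and the 9 genes are given with all 6 libraries and without that one (the 5-library comparison). "Rose" and "fell" are used of genes for which limma gave an adjusted p under 0.05 without that library. Of 8 astrocyte and glioma markers 7 were in the table, all but AQP4. GFAP stood at 14.73 to 14.98 in siRPL13 and 14.98 to 15.50 in siNC. Over the 6 libraries VIM stood at 15.90 to 16.33, CD44 at 15.63 to 15.95 and NES at 14.11 to 14.53. SOX9 stood at 12.05 to 12.27, SLC1A3 at 11.09 to 11.49 and S100B at 5.48 to 5.83. Of 5 neuron markers 4 were in the table: RBFOX3 stood at 0.20 to 0.23 over the 6 libraries, SYN1 at 4.32 to 4.62, SNAP25 at 6.84 to 7.17 and SYT1 at 8.58 to 8.78. Of 5 microglia markers 2 were in the table, TREM2 at 1.17 to 1.31 and CSF1R at 4.88 to 5.22.

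With all 6 libraries 0 of the 9 genes passed the limma test, as did 0% of the 15327 genes tested. At an unadjusted p under 0.05 there were 2 of the 9, BACE2 and NCSTN, beside 8.32% of all genes. In the 5-library comparison 3 of the 9 passed, beside 19.1% of all genes: BACE2 rose, beside 8.42% of all genes rising, and BACE1 and NCSTN fell, beside 10.7% falling. Estimated library weights in place of leaving a library out called 4 of the 9, beside 34.6% of all genes: BACE2 was higher (17.0% of all genes) and BACE1, PSEN2 and NCSTN were lower (17.7%). The estimation of these weights did not converge. They were 0.992, 7.19 and 0.163 for siRPL13 replicates 1 to 3 and 0.596, 0.851 and 1.7 for siNC replicates 1 to 3. The weighted siRPL13 values thus rest mostly on siRPL13 replicate 2. The median log2 difference of the 9 genes was -0.02 over all 6 libraries and 0.00 over 5, with medians of -0.001 over all genes tested in both. The 5-library calls rest on 2 siRPL13 libraries: without siRPL13 replicate 1 as well, or without siRPL13 replicate 2 as well, only 1 of the 9, NCSTN, was called. In each of those alternatives the lone siRPL13 library is assumed to vary like the siNC libraries, since the spread comes from siNC alone.

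**Figure D1:**
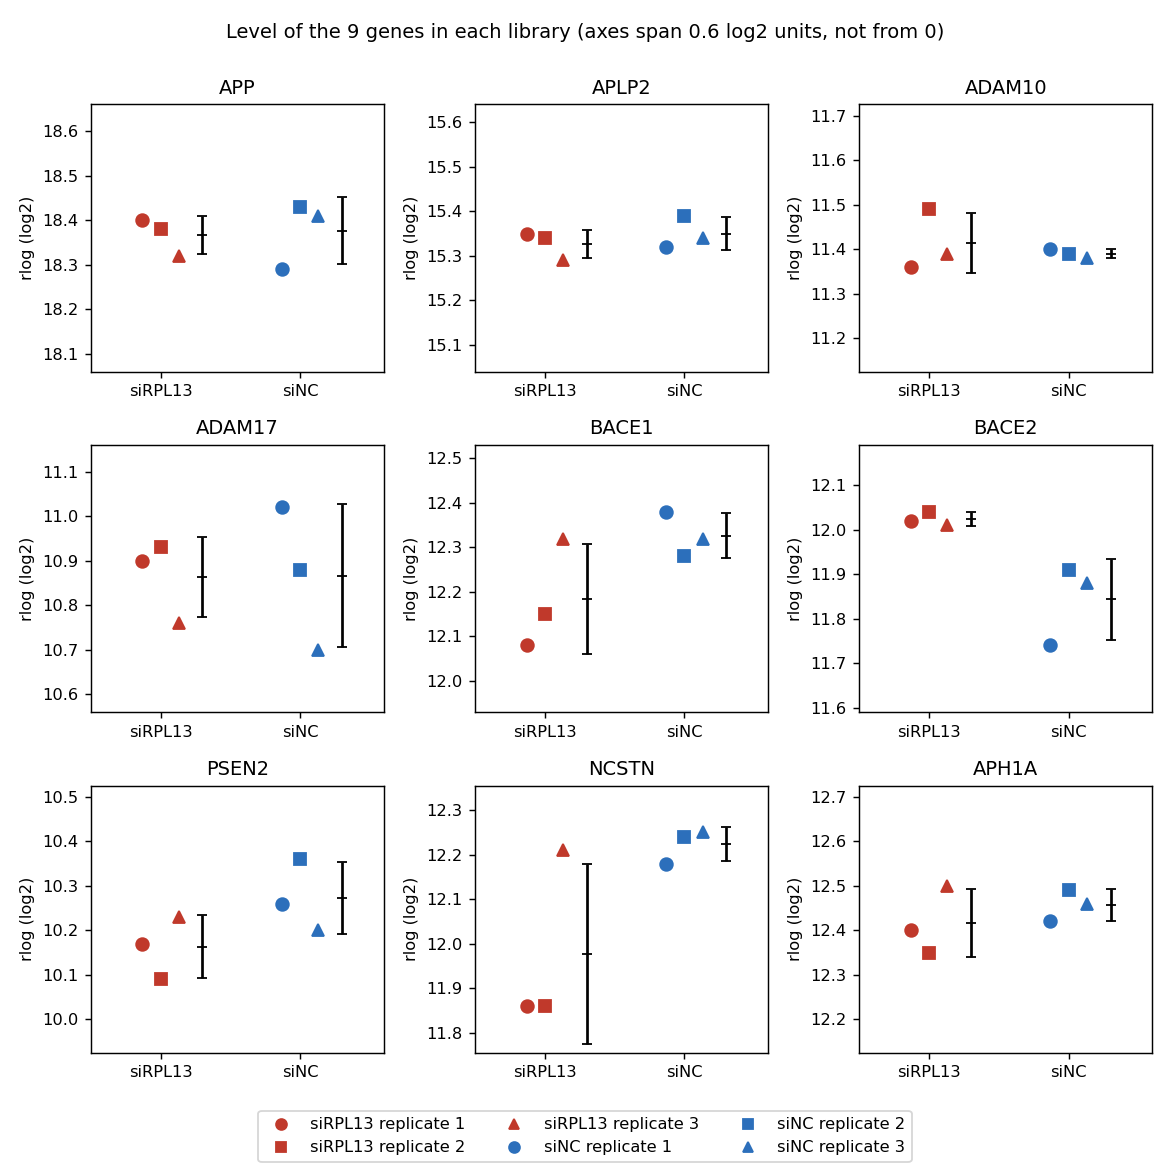
Level of the 9 genes as rlog values (vertical axes, log2, each spanning 0.6 units and not starting at 0), with one point per library, siRPL13 in red and siNC in blue, the shape giving the replicate number, and bars for the mean ± SD of 3 libraries. All 3 siRPL13 libraries of BACE2 (12.01 to 12.04) lie above the siNC libraries (11.74 to 11.91), while the NCSTN values of siRPL13 replicates 1 and 2 (both 11.86) lie below those of siNC (12.18 to 12.25).

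Among the precursors, APP (ENSG00000142192, GRCh38 chr21:25880550-26171128, minus strand) had the highest mean rlog of all genes tested. It stood at 18.40, 18.38 and 18.32 in siRPL13 replicates 1 to 3, against 18.29, 18.43 and 18.41 in siNC replicates 1 to 3. The groups overlapped, and the log2 difference was -0.01 ± 0.09 (SE), with a 95% interval of -0.20 to 0.18 over all 6 libraries. In the 5-library comparison the difference was 0.02 ± 0.07, with an interval of -0.15 to 0.18 (adjusted p 0.9, limma). Reads of the cell's own APP and of the introduced copy were counted under this 1 gene and were not told apart. APLP2 (ENSG00000084234, GRCh38 chr11:130068147-130144811, plus strand), a paralog with a like domain plan but without the amyloid-beta stretch, varied least of the 9 genes over the libraries. It stood at 15.35, 15.34 and 15.29 in siRPL13 and 15.32, 15.39 and 15.34 in siNC, a range of 0.10. Its log2 difference was -0.02 ± 0.06 (SE), with a 95% interval of -0.16 to 0.12 over all 6 libraries, and 0.00 ± 0.05 in the 5-library comparison. Within each library APP exceeded APLP2 by 3.05, 3.04 and 3.02 rlog units in siRPL13 and by 2.98, 3.04 and 3.07 in siNC. The siRPL13 values of this distance lay inside the siNC range.

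The alpha-secretase genes overlapped between the groups and did not pass the test. ADAM10 (ENSG00000137845, GRCh38 chr15:58588807-58749978, minus strand), the main constitutive alpha-secretase of neurons, stood at 11.36, 11.49 and 11.39 in siRPL13 and at 11.40, 11.39 and 11.38 in siNC. The siNC libraries lay within the range of the siRPL13 ones. Its log2 difference was 0.03 ± 0.06 (SE) over all 6 libraries and 0.04 ± 0.05 over 5, with 95% intervals of -0.11 to 0.16 and -0.08 to 0.15. ADAM17 (ENSG00000151694, GRCh38 chr2:9488486-9556732, minus strand), which also sheds tumour necrosis factor and ligands of the EGF receptor, had the widest spread among siNC libraries of the 9 genes. It stood at 10.90, 10.93 and 10.76 in siRPL13 and at 11.02, 10.88 and 10.70 in siNC, so that the siRPL13 libraries lay inside the siNC range. Its log2 difference was 0.00 ± 0.09 over all 6 libraries (95% interval -0.21 to 0.20) and 0.05 ± 0.08 in the 5-library comparison. ADAM17 shares 1323 exon bases with IAH1 on the other strand, and strand handling in the counting is not stated, so reads there cannot be told apart. IAH1 stood between 10.10 and 10.29 in the 6 libraries.

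BACE1 and BACE2 differed in opposite directions with all 6 libraries and with 5, and of these comparisons only the 5-library one called them. BACE1 (ENSG00000186318, GRCh38 chr11:117285207-117316259, minus strand), the beta-secretase, stood at 12.08, 12.15 and 12.32 in siRPL13 replicates 1 to 3, against 12.38, 12.28 and 12.32 in siNC. Replicates 1 and 2 of siRPL13 lay below every siNC library, and the library labelled siRPL13 replicate 3 lay within the siNC range. BACE1 fell by 0.21 ± 0.05 (SE, log2), to 86.4% of siNC on the rlog scale, in the 5-library comparison (adjusted p 0.0178, limma). With all 6 libraries the difference was -0.14 ± 0.07 (adjusted p 0.596, limma), with a 95% interval of -0.31 to 0.02. Leaving out siRPL13 replicate 1 as well gave BACE1 a difference of -0.18 ± 0.08 and ended the call (limma adjusted p 0.253), as did leaving out siRPL13 replicate 2 (-0.24 ± 0.08, adjusted p 0.0963), with 1 siRPL13 library left in each. Over the 13 alternatives the BACE1 difference lay between -0.24 and -0.17. RNF214, which overlaps BACE1 on the other strand by 1239 exon bases, stood at 9.62, 9.54 and 9.40 in siRPL13 and 9.41, 9.53 and 9.49 in siNC. The antisense gene BACE1-AS, which shares 1872 exon bases with BACE1, was not among the genes of the deposited table. As for ADAM17, reads in the shared bases cannot be told apart, since strand handling is not stated.

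BACE2 (ENSG00000182240, GRCh38 chr21:41167801-41282518, plus strand), the BACE1 paralog that cuts APP mainly within the amyloid-beta stretch, stood at 12.02, 12.04 and 12.01 in siRPL13, against 11.74, 11.91 and 11.88 in siNC. Unlike for BACE1, the library labelled siRPL13 replicate 3 lay with the other siRPL13 libraries, although its RPL13 value lay within the siNC range. The BACE2 values thus did not follow those of RPL13 in that library. BACE2 was the only one of the 9 genes whose groups did not overlap with all 6 libraries. Over all genes, 6.92% did not overlap with siRPL13 higher and 6.90% with siRPL13 lower. The log2 difference was 0.18 ± 0.06 (SE), with a 95% interval of 0.04 to 0.32 over all 6 libraries (limma, adjusted p 0.589). In the 5-library comparison BACE2 rose by 0.18 ± 0.06, or to 114% of siNC on the rlog scale, with an adjusted p of 0.0499 (limma), just under the threshold. For BACE2 the call ended when siNC replicate 3 was left out as well (limma adjusted p 0.0708), or siRPL13 replicate 1 (0.274) or siRPL13 replicate 2 (0.252).

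Within each library the BACE2 rlog minus the BACE1 rlog was -0.06, -0.11 and -0.31 in siRPL13 and -0.64, -0.36 and -0.44 in siNC. Every siRPL13 library lay above every siNC library in this distance, the library labelled siRPL13 replicate 3 by the smallest margin. The group means were -0.16 ± 0.13 in siRPL13 and -0.48 ± 0.14 in siNC (SD, n = 3 each). The pair was set side by side after its values had been seen, so the distance is a description with no test. For comparison, ADAM10 minus ADAM17 was 0.47, 0.56 and 0.64 in siRPL13 and 0.38, 0.51 and 0.68 in siNC, with overlapping groups.

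**Figure D2:**
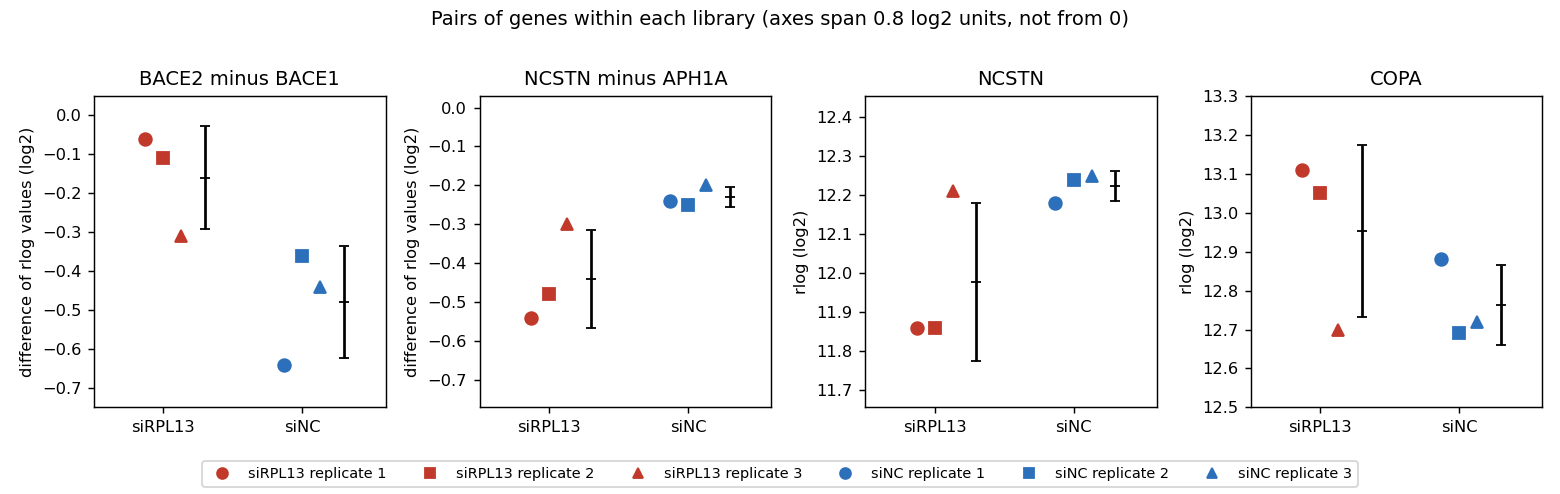
Differences of rlog values between pairs of genes within each library, and the rlog values of NCSTN and its neighbour COPA (vertical axes, log2, each spanning 0.8 units and not starting at 0); one point per library, siRPL13 in red and siNC in blue, with the mean ± SD of 3 libraries. BACE2 minus BACE1 lies at -0.06 to -0.31 in siRPL13 and at -0.36 to -0.64 in siNC.

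Of the gamma-secretase genes, NCSTN fell and the others did not pass the test. NCSTN (ENSG00000162736, GRCh38 chr1:160343272-160358952, plus strand) encodes nicastrin, the large glycoprotein that gates access of substrates to the complex. It stood at 11.86, 11.86 and 12.21 in siRPL13 replicates 1 to 3, against 12.18, 12.24 and 12.25 in siNC. Replicates 1 and 2 of siRPL13 lay below every siNC library, whereas the library labelled siRPL13 replicate 3 lay among them. NCSTN fell by 0.36 ± 0.05 (SE, log2), to 77.9% of siNC on the rlog scale, in the 5-library comparison (adjusted p 0.00113, limma), where it ranked 174 of 15327 genes by p. That call held in all 13 alternatives, with adjusted p from 5.11e-05 to 0.0473 (limma), the highest with siRPL13 replicate 2 as the lone siRPL13 library. With all 6 libraries its difference was -0.25 ± 0.09 (adjusted p 0.589, limma), with a 95% interval of -0.46 to -0.03.

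PSEN2 (ENSG00000143801, GRCh38 chr1:226870184-226896105, plus strand), a presenilin and thus a catalytic subunit, stood at 10.17, 10.09 and 10.23 in siRPL13, against 10.26, 10.36 and 10.20 in siNC. The log2 difference of PSEN2 was -0.11 ± 0.07 (SE) over all 6 libraries and -0.15 ± 0.06 in the 5-library comparison (adjusted p 0.135, limma). APH1A (ENSG00000117362, GRCh38 chr1:150265399-150269580, minus strand), a scaffold subunit, stood at 12.40, 12.35 and 12.50 in siRPL13, against 12.42, 12.49 and 12.46 in siNC. Its log2 difference was -0.04 ± 0.06 over all 6 libraries and -0.08 ± 0.05 in the 5-library comparison (adjusted p 0.277, limma). APH1A shares 490 exon bases with C1orf54 on the other strand, and reads there cannot be told apart. C1orf54 stood between 3.91 and 4.02 in the 6 libraries. Without the library labelled siRPL13 replicate 3, 4 of the 9 genes (BACE1, PSEN2, NCSTN and APH1A) had siRPL13 libraries that all lay below siNC, beside 26.6% of all genes, and BACE2 lay above, beside 24.7%.

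NCSTN minus APH1A was -0.54, -0.48 and -0.30 rlog units in siRPL13, against -0.24, -0.25 and -0.20 in siNC, with every siRPL13 library lower. NCSTN minus PSEN2 was 1.69, 1.77 and 1.97 in siRPL13 and 1.92, 1.87 and 2.05 in siNC, with overlapping groups. These distances too were chosen after the values had been seen and were not tested. PSENEN and APH1B, further components of the complex, did not pass the test in either comparison. PSENEN, which encodes PEN2, stood at 8.39, 8.32 and 8.22 in siRPL13 and 8.34, 8.40 and 8.37 in siNC. APH1B, the APH1A paralog, stood at 8.34, 8.36 and 8.37 in siRPL13, below all siNC libraries at 8.47, 8.50 and 8.49, with a log2 difference of -0.13 ± 0.06 (SE) over all 6 libraries (adjusted p 0.594, limma). APLP1, the third member of the precursor family, stood at 10.61, 10.60 and 10.61 in siRPL13 and at 10.50, 10.65 and 10.46 in siNC.

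NCSTN lies head to head with COPA, the gene of a subunit of the COPI vesicle coat (GRCh38 chr1:160288686-160343400, minus strand), and their annotated exons share 129 bases. COPA moved the other way. It stood at 13.11, 13.05 and 12.70 in siRPL13 replicates 1 to 3, against 12.88, 12.69 and 12.72 in siNC. COPA rose by 0.31 ± 0.06 (SE, log2; adjusted p 0.0067, limma) in the 5-library comparison, and over all 6 libraries its difference was 0.19 ± 0.11 (adjusted p 0.619, limma). For both genes the library labelled siRPL13 replicate 3 lay within the siNC range. The COPA call ended without siRPL13 replicate 1 (limma adjusted p 0.13). Strand handling is not stated, so reads in the shared bases cannot be told apart. COPA was picked because it overlaps NCSTN, after the values of NCSTN had been seen.

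The stretch where these neighbours meet is shown because their starts lie together and their levels moved apart. It holds the first base of NCSTN in GENCODE 29 and ends just short of the first base of COPA. It is the 250 bases before the RefSeq start of NCSTN (GRCh38.p14 chr1:160343133-160343382, plus strand), 5′ to 3′, from RefSeq. The capitals mark matches to CCGGAAG, the core bound by ETS factors, searched on both strands.
NCSTN: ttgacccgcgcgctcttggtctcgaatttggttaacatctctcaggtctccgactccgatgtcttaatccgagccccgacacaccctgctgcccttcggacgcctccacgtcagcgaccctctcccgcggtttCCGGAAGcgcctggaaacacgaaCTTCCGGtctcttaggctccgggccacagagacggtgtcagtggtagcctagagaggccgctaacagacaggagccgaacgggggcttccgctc
There were 2 matches, starting 117 and 94 bases before the RefSeq start of NCSTN, the second on the other strand. The windows of APH1A and ADAM17, and 1 window of BACE1, held 1 match each. At least 1 match was present in 8.5% of all 35116 RefSeq windows of the same length. The share of windows with 2 matches was not counted. In this window 0 matches were found to TCACNCCAC, a sterol response element, a motif present in 0.9% of windows. The ATF6 and XBP1 core CCACG had 1 match in the NCSTN window and was present in 33.5% of windows. A match describes letters only.

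**Figure D3:**
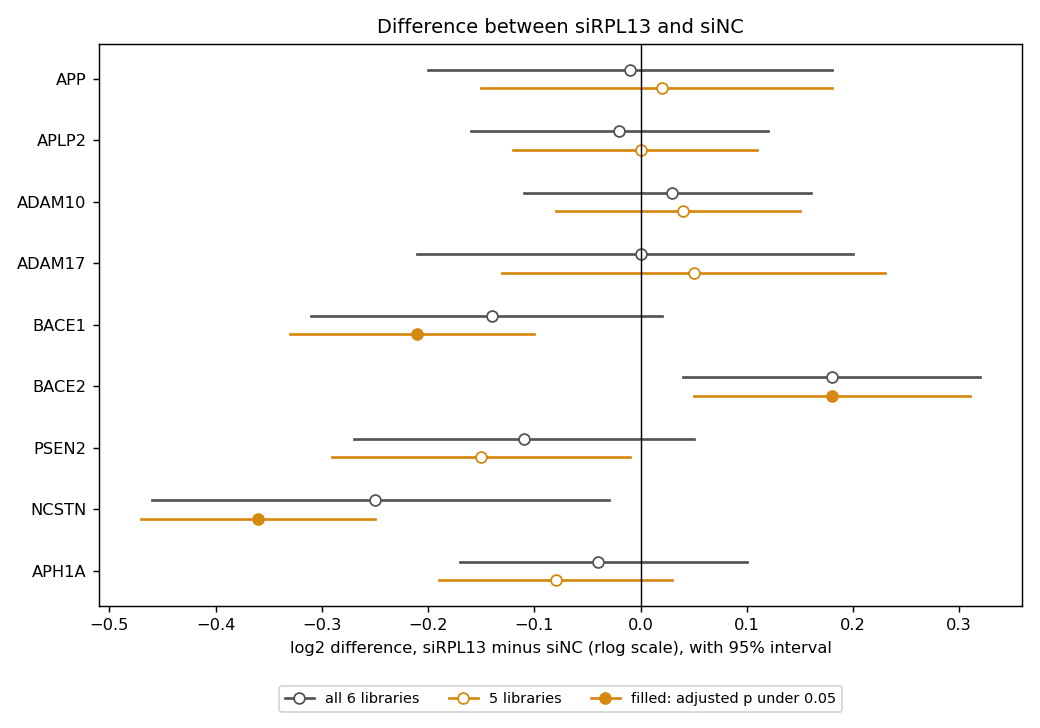
Log2 difference of each gene, siRPL13 minus siNC, on the rlog scale (horizontal axis), with its 95% interval from limma, for all 6 libraries (grey) and for 5 libraries (orange); filled points had an adjusted p under 0.05. The intervals of APP, APLP2, ADAM10 and ADAM17 span 0 in both comparisons, while NCSTN lies at -0.25 and -0.36.

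Levels of different genes were compared per length, as the rlog minus log2 of the union of annotated exons in kb. APP averaged 15.71 on this scale over the 6 libraries and APLP2 12.44, so that APP was 9.68 times APLP2 per length. APH1A followed at 10.64, NCSTN at 10.04, BACE1 at 9.41, BACE2 at 8.67, PSEN2 at 8.31, ADAM17 at 7.44 and ADAM10 at 7.39. The ranges over libraries of neighbours in this order did not overlap, except those of ADAM17 (7.27 to 7.59) and ADAM10 (7.35 to 7.48). ADAM10 lay above 58.5% and APLP2 above 98.9% of the 14933 genes with a length. Per length, BACE1 was 1.67 times BACE2, but this order depends on the length used. With the length of the coding transcript that has the longest coding sequence, BACE2 stood at 10.35 and BACE1 at 9.59. The other genes kept their order, but the overlaps between neighbours changed. With this length NCSTN (10.31 to 10.70) overlapped BACE2 (10.16 to 10.45), and PSEN2 (8.79 to 9.06) overlapped ADAM17 (8.55 to 8.88). ADAM17 and ADAM10 (7.85 to 7.98) did not overlap. The transcript of the introduced APP has no stated length, so the APP level per length is approximate.

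**Figure D4:**
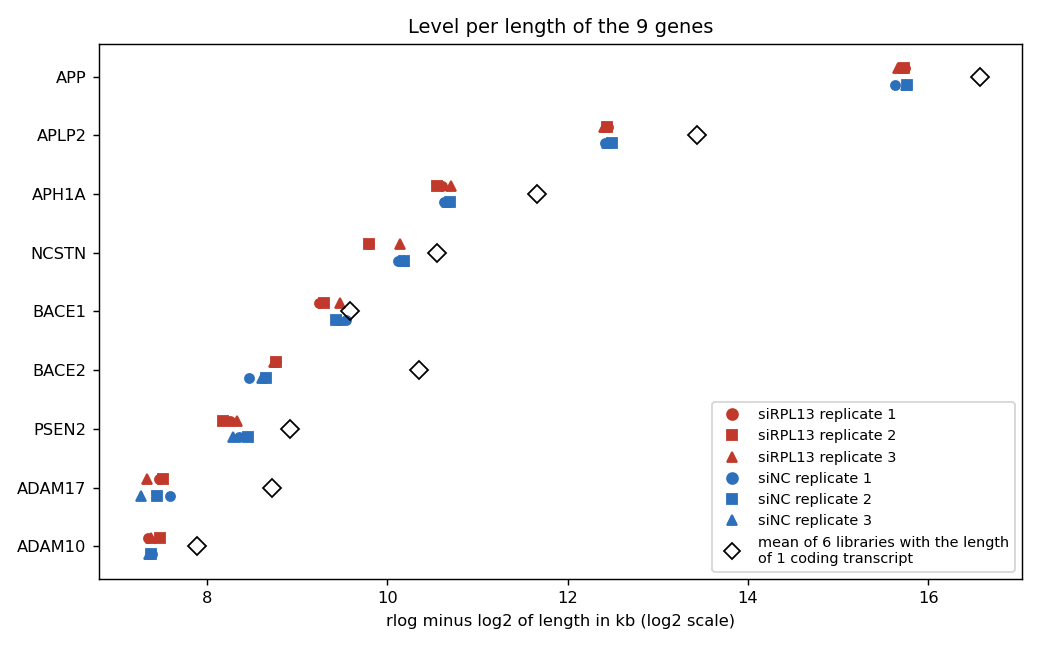
Level per length (horizontal axis: rlog minus log2 of the union exon length in kb) of the 9 genes, one point per library, siRPL13 in red above siNC in blue; open diamonds give the mean of 6 libraries with the length of 1 coding transcript. APP lies at 15.71 and ADAM10 at 7.39 on average, and the diamonds of BACE2 and BACE1 are in the reverse order of their points.

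Genes with the most similar pattern were sought by Pearson correlation over the 6 libraries among the 12847 genes whose rlog averaged 5 or more. For APP these were EIF3FP3, NUTM2B-AS1 and PEX26, with r of 0.994, 0.993 and 0.992. For NCSTN, the gene of the 9 with the widest range, they were SLC16A13, SFT2D1 and DHTKD1, each with r of 0.999. SLC16A13, for example, stood at 6.81, 6.81 and 7.34 in siRPL13 and at 7.29, 7.37 and 7.42 in siNC. There were 435 genes with r of at least 0.95 to NCSTN and 18 to APP. These are descriptions over 6 libraries that share the grouping and the scaling.

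Other genes of the pathway were taken from 7 lists with 86 genes, of which 78 were in the table and 75 were tested. With all 6 libraries 0 passed. With 5 libraries 3 rose, 17 fell and 55 did not pass, beside 8.42% of all genes rising and 10.7% falling, and the median difference was -0.06, against -0.001 over all genes tested. The count of falls was 7 without siRPL13 replicate 2 and 3 without siRPL13 replicate 1, and the count of rises was 0 in both. Of the 20 calls, those of ADAM19, L1CAM and SDC3 held in all 13 alternatives, 2 of which leave 1 siRPL13 library and take the spread from siNC alone. The other 17 were lost without siRPL13 replicate 1, and 13 of these also without siRPL13 replicate 2. Some markers moved alongside. In the 5-library comparison NES and VIM, both astrocyte and glioma markers, fell by 0.34 ± 0.05 and 0.31 ± 0.07 (SE, log2). These were 2 of 7 tested. The rest of that list was not called, with GFAP at -0.31, SLC1A3 at -0.06, S100B at -0.04, SOX9 at 0.06 and CD44 at 0.07. The endothelial marker CDH5 fell by 0.46 ± 0.08 (1 of 2 tested), and VWF, at -0.12, was not called. With all 6 libraries the differences of NES, VIM, GFAP and CDH5 were -0.25, -0.29, -0.36 and -0.35 (adjusted p 0.589 each, limma). In 3 of the 7 astrocyte and glioma markers, GFAP, VIM and NES, all siRPL13 libraries, replicate 3 included, lay below siNC. That was so for 6.90% of all genes, and 0 of the 7 lay above, beside 6.92%. The 5-library calls of NES, VIM and CDH5 ended without siRPL13 replicate 1, and that of VIM also without siRPL13 replicate 2. The log2 of the summed level of the astrocyte and glioma list was 17.38 to 17.46 in siRPL13 and 17.54 to 17.77 in siNC. That of the endothelial list was 6.58 to 6.89 in siRPL13 and 6.88 to 6.99 in siNC, with CLDN5 at 2.46 to 2.57 in all libraries. Their part in these results was not tested.

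Other proteases that cut APP fell in 4 of 9 cases and rose in 0, beside 10.7% of all genes falling and 8.42% rising. ADAM19, a metalloprotease of the ADAM family, stood at 11.65, 11.73 and 12.37 in siRPL13 replicates 1 to 3, against 12.13, 12.23 and 12.11 in siNC. The library labelled siRPL13 replicate 3 was thus the highest and the other siRPL13 libraries the lowest. ADAM19 fell by 0.47 ± 0.06 (SE, log2; adjusted p 0.000715, limma). The membrane metalloprotease gene MMP14 fell by 0.34 ± 0.08. Legumain (LGMN), an asparagine-specific lysosomal protease, fell by 0.26 ± 0.06, and cathepsin B (CTSB) fell by 0.22 ± 0.07. The CTSB call (adjusted p 0.0437, limma) was lost with the replicate block and with eBayes without a trend. It was also lost without siNC replicate 2 or siNC replicate 3. The 6-library differences were smaller, at -0.24 ± 0.17 for ADAM19, -0.16 ± 0.15 for MMP14, -0.15 ± 0.10 for LGMN and -0.15 ± 0.09 for CTSB (adjusted p 0.656, 0.721, 0.647 and 0.627, limma). ADAM9, another ADAM protease, had a difference of 0.15 ± 0.05 (adjusted p 0.07, limma).

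Among regulators of ADAM10 and ADAM17, 4 of 15 fell and 0 rose, beside 10.7% of all genes falling and 8.42% rising. The tetraspanins TSPAN14 and TSPAN15 escort ADAM10 to the cell surface. TSPAN14 stood at 11.60, 11.63 and 11.99 in siRPL13, against 11.94, 12.01 and 11.93 in siNC, and fell by 0.34 ± 0.05 (SE, log2; adjusted p 0.00178, limma). TSPAN15 stood at 10.21, 10.19 and 10.38 in siRPL13, below every siNC library at 10.53, 10.47 and 10.42, and fell by 0.27 ± 0.06. RHBDF2, which encodes the iRhom2 partner of ADAM17, fell by 0.32 ± 0.08, and FURIN, a convertase that removes ADAM prodomains, by 0.22 ± 0.06. The FURIN call was lost without siNC replicate 3. Over all 6 libraries TSPAN14 differed by -0.22 ± 0.10 and TSPAN15 by -0.21 ± 0.07 (adjusted p 0.589 each, limma), RHBDF2 by -0.18 ± 0.12 and FURIN by -0.10 ± 0.10 (adjusted p 0.654 and 0.757). ADAM10 and ADAM17 themselves did not pass the test.

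Among genes of BACE1 trafficking and regulation, 3 of 12 fell and 0 rose, beside 10.7% of all genes falling and 8.42% rising. RTN3 and RTN4 encode reticulons that bind BACE1. RTN3 stood at 13.13, 13.23 and 13.29 in siRPL13, below all siNC libraries at 13.49, 13.40 and 13.44, and fell by 0.26 ± 0.05 (SE, log2; adjusted p 0.00728, limma). RTN4 stood at 14.45, 14.48 and 14.57 in siRPL13, also below siNC at 14.69, 14.61 and 14.67, and fell by 0.19 ± 0.05. GGA2, of a family of sorting adaptors, also fell by 0.19 ± 0.05. The calls of RTN4 and GGA2 were lost with the replicate block and also without siNC replicate 3. The 6-library differences were -0.23 ± 0.06 for RTN3, -0.15 ± 0.06 for RTN4 and -0.13 ± 0.07 for GGA2 (adjusted p 0.589, 0.589 and 0.596, limma). In the gamma-secretase list 1 of 6 genes fell, IFITM3, an interferon-induced protein reported to bind the complex, by 0.83 ± 0.17, beside 10.7% of all genes falling. IFITM3 stood at 11.58, 11.79 and 13.21 in siRPL13 and at 12.62, 12.87 and 12.05 in siNC. The library labelled siRPL13 replicate 3 was the highest of the 6, and with it included the IFITM3 difference was -0.32 ± 0.39 (adjusted p 0.79, limma). The 5-library call also ended with a robust trend.

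Of 11 cytoplasmic adaptors of APP, 2 rose and 1 fell, beside 8.42% of all genes rising and 10.7% falling. APBB1, which encodes FE65 and binds the APP tail, stood at 10.63, 10.63 and 10.45 in siRPL13, above every siNC library at 10.35, 10.42 and 10.30. It rose by 0.27 ± 0.06 (SE, log2; adjusted p 0.0082, limma). MAPK8IP1, a JNK scaffold, rose by 0.20 ± 0.06 and SHC1, a signalling adaptor, fell by 0.16 ± 0.05. The call for MAPK8IP1 was lost in 6 of 13 alternatives and that for SHC1 in 7, among them the replicate block for both and quantile scaling for SHC1 (-0.08). The 6-library differences were 0.21 ± 0.07 for APBB1, 0.10 ± 0.09 for MAPK8IP1 and -0.09 ± 0.08 for SHC1 (adjusted p 0.589, 0.721 and 0.712, limma). Of 18 other secretase substrates tested, 1 rose and 4 fell, beside the same shares of all genes. The adhesion molecule gene L1CAM stood at 11.11, 11.06 and 11.78 in siRPL13, against 11.74, 11.78 and 11.55 in siNC, and fell by 0.60 ± 0.07 (adjusted p 0.000641, limma). SDC3, a syndecan, fell by 0.41 ± 0.06, NECTIN1, an adhesion receptor, by 0.37 ± 0.06 and TGFA, an EGF receptor ligand, by 0.28 ± 0.07. JAG1, a Notch ligand, rose by 0.23 ± 0.06. With 6 libraries the differences were -0.37 ± 0.17 for L1CAM, -0.25 ± 0.12 for SDC3, -0.21 ± 0.13 for NECTIN1, -0.20 ± 0.09 for TGFA and 0.14 ± 0.09 for JAG1 (adjusted p 0.589 to 0.639, limma). NOTCH2, a Notch receptor, stood at 15.27, 15.26 and 15.29 in siRPL13 and at 15.27, 15.29 and 15.23 in siNC. The substrates CDH1, SEZ6 and ST6GAL1 had means under 3 and were not tested.

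**Figure D5:**
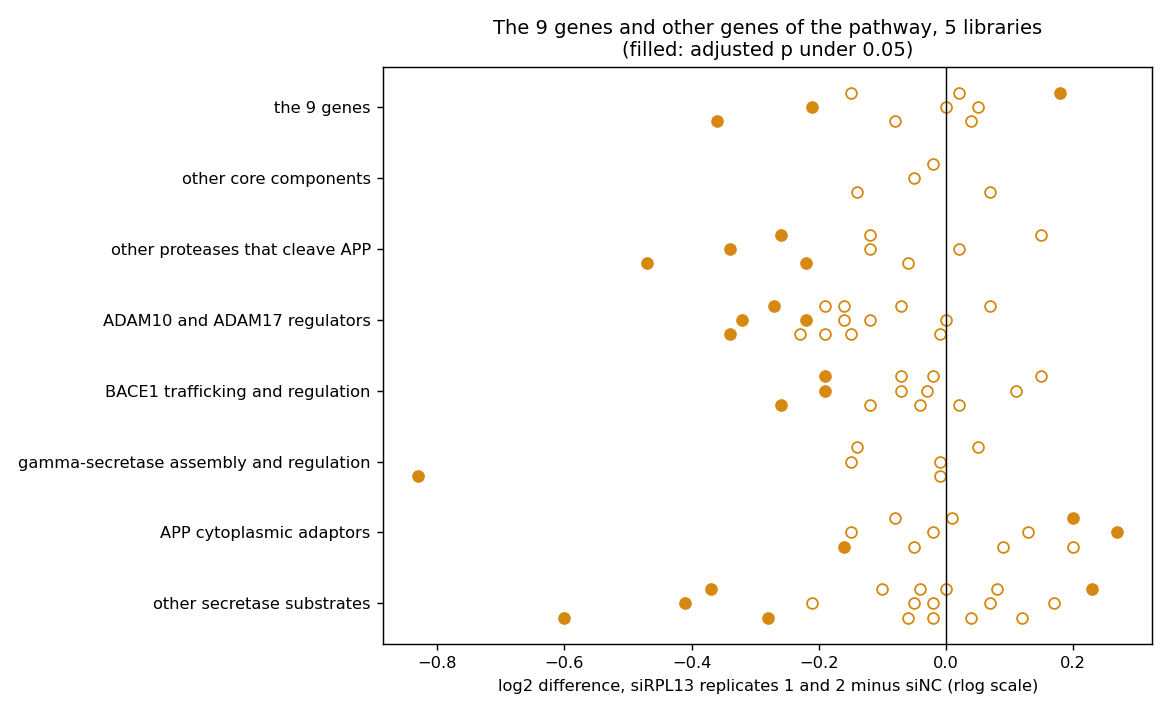
Log2 difference of siRPL13 replicates 1 and 2 minus siNC on the rlog scale (horizontal axis) for the 9 genes and the 75 tested genes of 7 other lists (rows, one point per gene, spread vertically for legibility); filled points had an adjusted p under 0.05. The filled points of the protease, ADAM regulator and BACE1 lists all lie left of 0, and that of IFITM3 lies at -0.83.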

How the data were processed

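The authors deposited 1 table of log2 values, named as rlog, with 1 value per Ensembl gene and library. Per the submitters' processing notes, the tools were DESeq2, HTSeq 0.6.1p1, TopHat and Trimmomatic 0.33 and the build was GRCh38.p7; roles and settings are not given in the sources used here. An rlog is pulled towards the gene's mean, so differences of low genes are understated, and depth is unknown; no count model was used. Per the labels' protocols, 1.5 µg of total RNA entered each library. Symbols came from a table of gene names (20499 of 21429 identifiers), positions and lengths from GENCODE 29 (20608).

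Genes whose rlog averaged 3 or more were tested with limma 3.58.1 in R 4.3.3 (eBayes with a trend, two-sided), adjusted by Benjamini-Hochberg over all of them. The genes and lists were chosen with earlier results of these data known. Named were all 9 genes, the remaining components (1 item is not reported here), and list genes past the threshold in the 5-library comparison, at most 4 per list and direction; for APP and the gene of widest range, the 3 most correlated genes. COPA, IAH1, RNF214, C1orf54, NES, VIM, CDH5, ADAM9 and NOTCH2 were picked for overlap, as markers or after their values were seen. Alternatives were the replicate block, leaving out each library, library weights, median centring, quantile scaling, other filters (none, or 5) and eBayes with a robust trend or none; the transcript length was added after seeing the data. The test was checked on simulated data with the same spread for every gene and no library that goes against its label. That check has no bearing on the library labelled siRPL13 replicate 3. No library pair shared identical values (0). Figures were drawn with matplotlib 3.10.9.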

Additional observations from a re-analysis of the deposited data

How the results depend on the processing

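With all 6 libraries, counts of 0 called genes held under every alternative except 2. Library weights called 5309 genes, 4 of the 9 and 33 other pathway genes (the weights had not converged), and leaving out single libraries gave 0 to 2933, 0 to 3 and 0 to 20, the upper values without siRPL13 replicate 3. The unadjusted count was 1275 genes. In the 5-library comparison, leaving out a further library gave 243 to 3748 genes, 1 to 3 of the 9 and 3 to 30 other pathway genes, the lowest values with 1 siRPL13 library left, whose spread is then assumed to be that of siNC; the other alternatives stayed within 1.5 times. The NCSTN fall held in all 13 alternatives (-0.38 to -0.32). The BACE2 call was also lost without a filter (adjusted p 0.0758, limma) and without a trend (0.082). Replicate numbers did not pair the libraries: deviations of same-numbered libraries correlated at 0.08, -0.43 and -0.33, and no library matched its own number best. The replicate block gave 0 genes with 6 libraries and 3043 genes, 3 of the 9 and 17 other pathway genes with 5.

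Differences near 0 changed sign in places and their cause was not tested. With 6 libraries, quantile scaling gave APP 0.00, APLP2 0.01, ADAM17 0.01 and APH1A 0.00; median centring gave ADAM17 0.00, and weights gave it 0.12. With 5, quantile scaling gave APLP2 0.05, median centring gave it 0.01, and the replicate block gave ADAM17 -0.03. Leaving out 1 library spanned -0.05 to 0.02 for APP, -0.03 to 0.00 for APLP2, -0.01 to 0.05 for ADAM10 and -0.09 to 0.07 for ADAM17 with 6 libraries. With 5 the spans were -0.03 to 0.04, -0.02 to 0.02, -0.03 to 0.10 and -0.03 to 0.13. None of these was called. Without counts, the limit that depth sets is unknown.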
